A study of Mus musculus with 12 samples.

Results

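The mitochondrial ribosomal proteins are the nuclear-encoded proteins of the ribosome that works inside mitochondria. They were taken here as every gene whose symbol is Mrpl or Mrps, followed by a number and at most 1 letter, which gave 78 of the 36175 genes in the deposited table. Of these, 49 carry the Mrpl symbol of the large subunit and 29 the Mrps symbol of the small subunit. All 78 had a signal of 1 or more in each of the mice and were tested together with the other genes that did so, 12590 in all.

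RNA-seq was performed on B cells purified from the Peyer's patches (PP), the lymphoid follicles of the small intestine, of 12 male wild-type C57BL/6JHsd mice aged 10 to 12 weeks. The 6 sham controls had sham surgery, and in the 6 stroke mice the middle cerebral artery was occluded for 1 h and then reopened. Cells were taken 18 h after surgery, as the study's text has it, and purified with magnetic beads, first with a B cell kit and then by CD45. Each mouse gave 1 library, and values are a normalised TPM signal, which is corrected for transcript length.

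The mitochondrial ribosome translates the mRNAs of the mitochondrial genome, whose 13 protein-coding genes encode core subunits of the respiratory chain and of ATP synthase. Its proteins are made in the cytosol and imported, and they assemble on 2 ribosomal RNAs that the mitochondrial genome encodes. Part of the set descends from bacterial ribosomal proteins, and the rest is particular to mitochondria. The small subunit decodes the mRNA, and the large subunit joins the amino acids and feeds the new chain towards the inner membrane. For 3 genes the symbol does not say where the protein sits. The products of Mrps18a and Mrps30 are parts of the large subunit, and that of Mrps36 is a component of the 2-oxoglutarate dehydrogenase complex. Counts below follow the symbols, and counts by place in the ribosome are given once.

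The B cell markers Ms4a1, Cd79a, Cd79b, Pax5 and Cd22 were present in every library, with a summed signal of 1586 to 2280.3 for sham controls and 1255 to 2109 for stroke mice. Stroke mouse 5 had the lowest sum. The 7 epithelial markers ranged from 9.79 in sham control 6 to 1325 in sham control 1 and 1247 in sham control 2, with 149 to 371 in the other sham controls and 12.0 to 572 in stroke mice. Fabp2 and Krt8 were the most abundant of them. The 6 plasma cell markers summed to 294.5 in sham control 6 and 1486 in sham control 1, and to 372 to 1085 in stroke mice. The 6 T cell markers summed to 33.2 to 120 and the 6 neutrophil markers to 1.63 to 4.53 over all mice, and S100a8 was at 0 in 6 mice. The endothelial sum of 78.1 to 106 was nearly all Pecam1, whereas Cdh5, Kdr and Tek did not exceed 2.93 in any mouse.

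Members of both subunits were expressed at a similar middle level. The median of the mean signal over 12 mice was 24.0 for the large subunit and 22.6 for the small subunit, compared with 18.8 for all genes tested. Of the large subunit, 42 of 49 members lay between 10 and 50, and of the small subunit 24 of 29. Cytosolic ribosomal proteins stood far above this, with a median of 749, nuclear subunits of respiratory complex I had a median of 53.0, and the 13 protein-coding genes of the mitochondrial genome a median of 2358. Summed over all 78 members, the signal took 0.176% of the total in sham control 1 and 0.288% in sham control 6, the mice with the highest and lowest totals.

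Mrpl52, whose product is a large-subunit protein particular to mitochondria, stood above all other members, with a mean of 144 and a range over mice of 91.9 to 200.3. Within the large subunit, Mrpl54 came next at 59.9, and the ranges of these genes overlapped only through sham control 2, in which Mrpl54 reached 106. Mrpl24, the counterpart of a bacterial protein that starts large-subunit assembly, followed at 54.8. At the low end of the large subunit were Mrpl50 at 6.72, Mrpl44 at 9.49 and Mrpl14 at 9.50, and the ranges of these genes overlapped. Highest and lowest member of the large subunit differed 21.5-fold. In the small subunit the span was 8.56-fold, from Mrps21 at 67.9, Mrps5 at 60.7 and Mrps18a at 51.6 down to Mrps31 at 10.2, Mrps2 at 8.89 and Mrps6 at 7.93. The 3 highest of these overlapped in range, as did the 3 lowest.

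**Figure D1:**
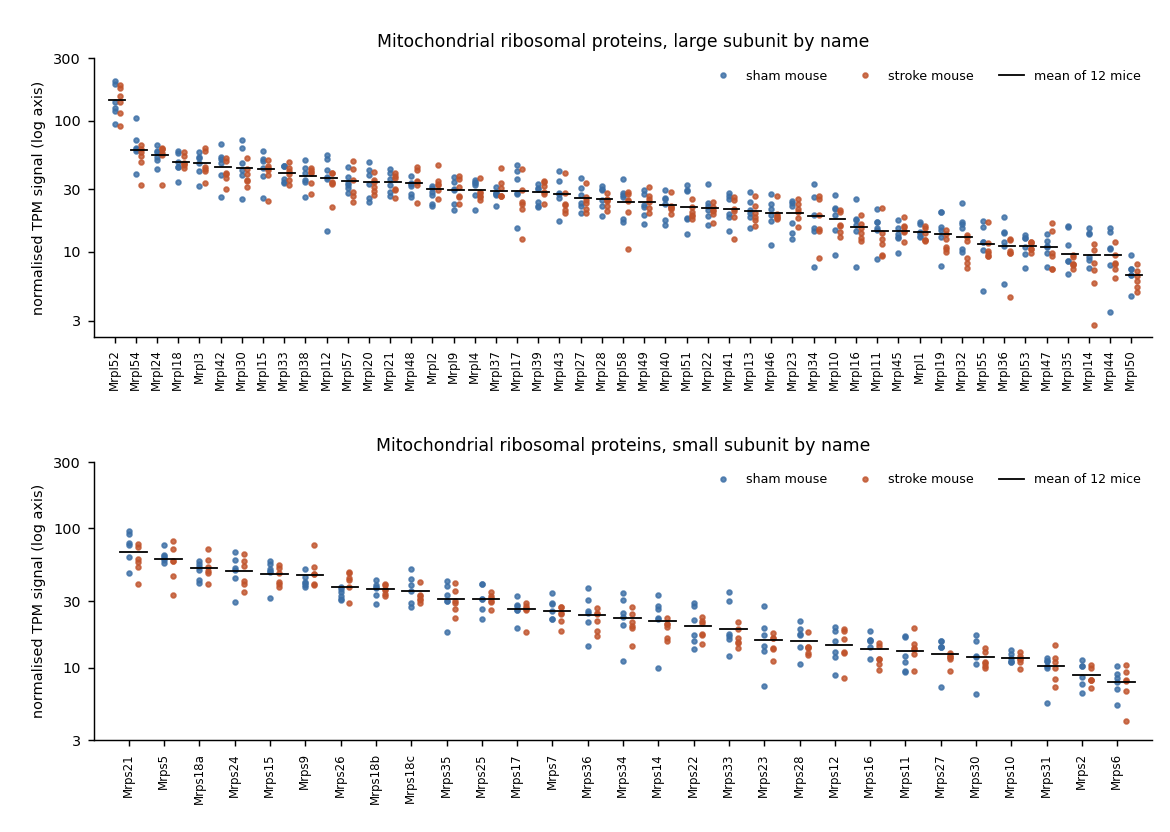
Normalised TPM signal (log axis) of all 78 members, with the large subunit (Mrpl) in the upper panel and the small subunit (Mrps) in the lower panel, ordered by mean. Each point is a mouse, and the bar is the mean of 12 mice; Mrpl52 at 144 stands above the rest, and most members lie between 10 and 50.

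Within a member, the highest mouse exceeded the lowest by a median of 2.11-fold, close to the 2.20-fold median of all genes tested. The narrowest spread was that of Mrps10, a small-subunit protein chosen here after its values were seen, from 9.83 to 13.3, a ratio of 1.36. The widest was that of Mrpl14, from 2.80 to 15.2, a ratio of 5.42.

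Whether stroke altered expression of the mitochondrial ribosomal proteins in PP B cells was examined with limma on log2(value + 0.5), with Benjamini-Hochberg adjustment over all 12590 genes. No member passed an adjusted p of 0.05, and neither did any other gene (0% of genes tested). The smallest adjusted p among members was 0.791. At an unadjusted limma p under 0.05, 2 members were lower in stroke mice, Mrpl32 and Mrps16, and 0 were higher. Of all genes tested, 1.69% were lower and 4.42% higher at that threshold, so the 2 of 78 lower members are near the background. No member had groups that did not overlap, compared with 0.437% of all genes.

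Most estimates were small and below 0. The log2 fold change was negative for 58 of 78 members, or 74.4%, compared with 48.6% of all genes tested, and the median was −0.07 compared with 0.01. In the large subunit 36 of 49 were negative with a median of −0.08, and in the small subunit 22 of 29 with a median of −0.06. These medians were both −0.18 without sham control 6, and −0.003 and −0.02 without sham control 2. Sample weights gave −0.12 for the small subunit. Of the 78 estimates, 61 lay between −0.2 and 0.2, 1 lay beyond 0.5 and 0 reached a fold of 2. The 95% interval held 0 for 76 members. The members are not independent of each other, and the share of negative estimates carries no test. Without sham controls 1 and 2, the mice with the highest epithelial sums, 16 large-subunit and 10 small-subunit members were negative, so the balance of signs turned, and the members' median was 0.05, level with the 0.05 of all genes. Rescaling every mouse to the same total moved the median of all genes to 0.12 and left 26 of 78 members negative, but 57 of 78 still lay below the median of all genes, compared with 62 of 78 on the values as deposited. In bulk libraries such as these, fewer cells of a type and less RNA per cell cannot be told apart.

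**Figure D2:**
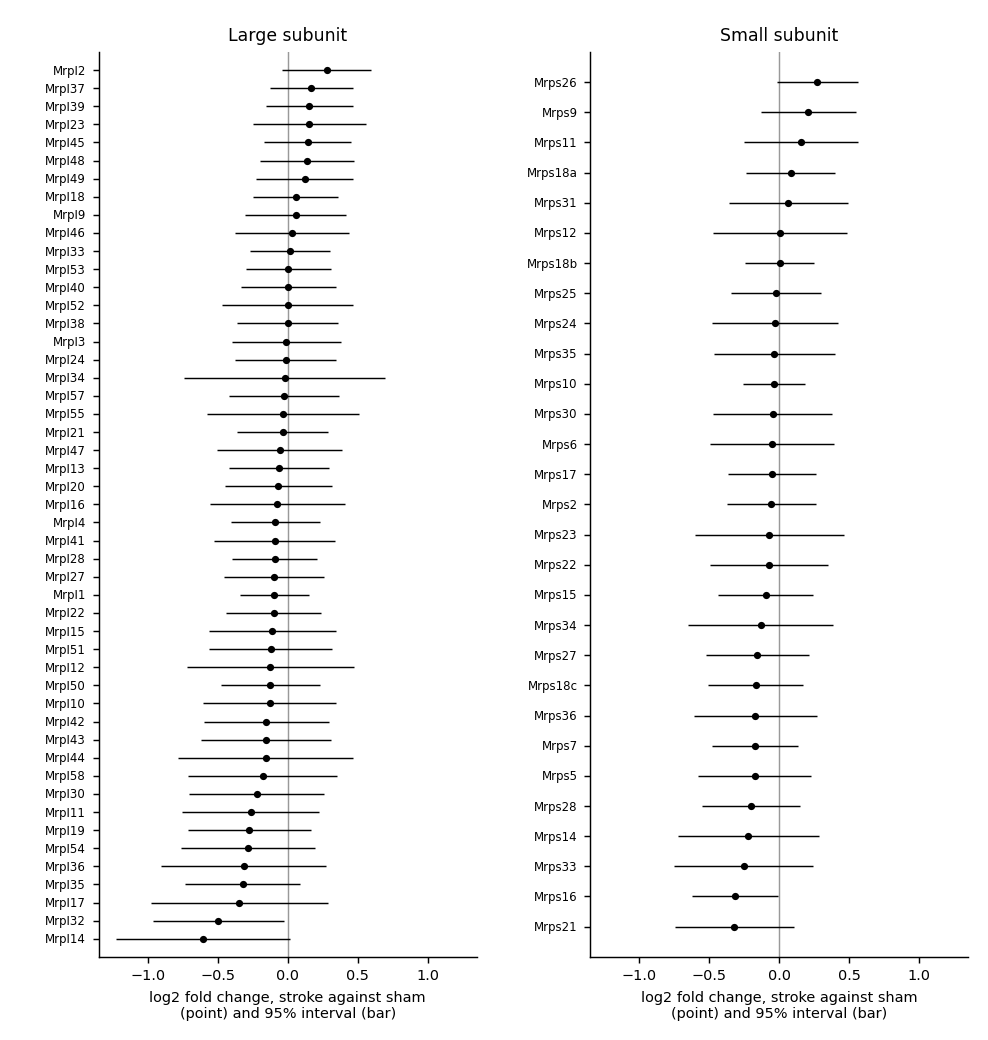
Log2 fold change of stroke against sham (points) with its 95% interval (bars) for each member, large subunit on the left and small subunit on the right, ordered by size, with 6 mice per group. Only the intervals of Mrpl32 and Mrps16 lie clear of 0, both on the negative side.

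Counted by place in the ribosome, with Mrps18a and Mrps30 moved to the large subunit and Mrps36 left out, 37 of 51 large-subunit genes and 20 of 26 small-subunit genes were negative. The 46 members listed as direct counterparts of bacterial ribosomal proteins had 38 negative estimates and a median of −0.09. The other 31, Mrps36 again left out, had 19 negative estimates and a median of −0.03. Mrps18a and Mrps18b were counted with the 31, since of the relatives of bacterial S18 only Mrps18c was listed as its direct counterpart. With the mice rescaled to the same total, both medians were above 0 but below that of all genes, at −0.09 and −0.03 relative to it. Without sham controls 1 and 2, the counts were 18 of 46 and 8 of 31, and the medians were level with that of all genes for the 46 and 0.05 above it for the 31, so the direction turned. The difference between these classes was not tested.

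Mrpl32 encodes a large-subunit protein that is trimmed by the mitochondrial m-AAA protease before it joins the ribosome (chr13:14608184-14613165, minus strand, GRCm38). In the order of their numbers, sham controls had a signal of 15.2, 23.5, 16.3, 9.94, 16.9 and 10.5, and stroke mice of 13.1, 8.97, 13.4, 12.1, 7.56 and 8.27. All 6 stroke mice lay below the sham mean, but sham controls 4 and 6 lay within the stroke range, so the groups overlapped. The means were 15.4 ± 4.95 and 10.6 ± 2.61 (SD, n = 6 per group). The log2 fold change was −0.50 with a standard error of 0.216 and a limma p of 0.0386, the adjusted p was 0.791, and the exact two-sided permutation test gave p = 0.0584. Leaving out each mouse in turn moved the estimate between −0.61 and −0.37, and without both sham controls 1 and 2 it was −0.32.

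Mrps16 encodes a small-subunit protein with a bacterial counterpart that is needed for assembly of that subunit (chr14:20389304-20393634, minus strand). The signal was 15.8, 18.3, 15.5, 14.0, 15.8 and 11.5 in the sham controls and 15.1, 11.5, 14.4, 11.5, 9.55 and 10.6 in the stroke mice. The sham controls other than number 6 lay between 14.0 and 18.3, and stroke mice 1 and 3 reached into that range. Means were 15.1 ± 2.28 and 12.1 ± 2.17 (SD, n = 6 per group). The log2 fold change was −0.31 with a standard error of 0.142, a limma p of 0.0449 and an adjusted p of 0.791, and the exact permutation p was 0.0433. Left-out mice moved it between −0.39 and −0.25.

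Mrpl14, whose product lies on the face of the large subunit that meets the small one, had the largest estimate of all members, −0.61 with a standard error of 0.290 (chr17:45686322-45698495, plus strand). Its adjusted p in limma was 0.791, and the exact permutation p was 0.0758. Sham controls had 13.7, 15.2, 14.0, 9.14, 8.69 and 7.49, and stroke mice 11.5, 10.3, 5.83, 7.32, 2.80 and 8.22. Sham controls 1 to 3 lay above every stroke mouse, whereas sham controls 4 to 6 lay among them. Without stroke mouse 5, the lowest, the estimate was −0.37, so this library moved it by over 1.5 times.

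Mrpl35, a large-subunit protein with a bacterial counterpart, had 15.4, 15.8, 11.2, 8.61, 8.49 and 6.82 in the sham controls. The stroke mice lay close together, at 8.07, 9.52, 7.95, 8.11, 9.20 and 7.37, all below the sham mean of 11.1 ± 3.80 (SD, n = 6). The log2 fold change was −0.32 (exact permutation p = 0.162). Sham controls 1 and 2, the highest in epithelial markers, were also the highest for this gene, and the estimate was −0.21 without sham control 2 and −0.05 without both.

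Mrps21, the most abundant small-subunit member, had 91.7, 96.1, 78.5, 62.8, 76.5 and 47.8 in the sham controls. Stroke mice had 60.4, 57.2, 73.4, 53.1, 39.8 and 77.4, a log2 fold change of −0.32 (exact permutation p = 0.147). Here too sham controls 1 and 2 were highest, and sham control 6 lay below 5 stroke mice. The estimate was −0.21 without stroke mouse 5 and −0.15 without sham controls 1 and 2.

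The members with the smallest p in the other direction also missed an unadjusted limma p of 0.05 in the fit reported here. Mrps26 passed it in a fit with a term for mouse number, without the filter on signal and without stroke mouse 2. Mrpl2 passed it with the term for mouse number and without stroke mouse 3. In these fits 4.45% to 6.12% of all genes were higher at that threshold. Mrps26, a small-subunit protein particular to mitochondria (chr2:130563742-130568695, plus strand), had 35.2, 31.3, 32.6, 30.4, 38 and 36.8 in the sham controls and 43.0, 29.1, 43.9, 37.8, 47.8 and 48.6 in the stroke mice. Stroke mice 1, 3, 5 and 6 lay above every sham control, and stroke mouse 2 below every one. The log2 fold change was 0.27 with a standard error of 0.135, an adjusted limma p of 0.791 and an exact permutation p of 0.0606.

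Mrpl2, which in bacteria lies next to the centre that forms the peptide bond, had 28.4, 30.5, 22.5, 27.1, 31.9 and 23.2 in the sham controls and 34.5, 29.7, 25.2, 32.3, 46.1 and 33.2 in the stroke mice. Its log2 fold change was 0.28 (exact permutation p = 0.0714), and stroke mouse 5 was the highest mouse. That same library was the highest for Mrps9, at 75.5 against 37.7 to 53.3 in all other mice, for Mrpl37, at 43.5 against 22.6 to 33.3, and for Mrpl39, at 35.1 against 21.9 to 34. The log2 fold changes of these 3 genes were 0.21, 0.17 and 0.15. Without stroke mouse 5 they were 0.08, 0.07 and 0.11, and that of Mrpl2 was 0.18, so this library moved all but Mrpl39 by over 1.5 times. The estimate of Mrpl39 was 0.099 without sham control 6 and 0.27 without sham controls 1 and 2.

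**Figure D3:**
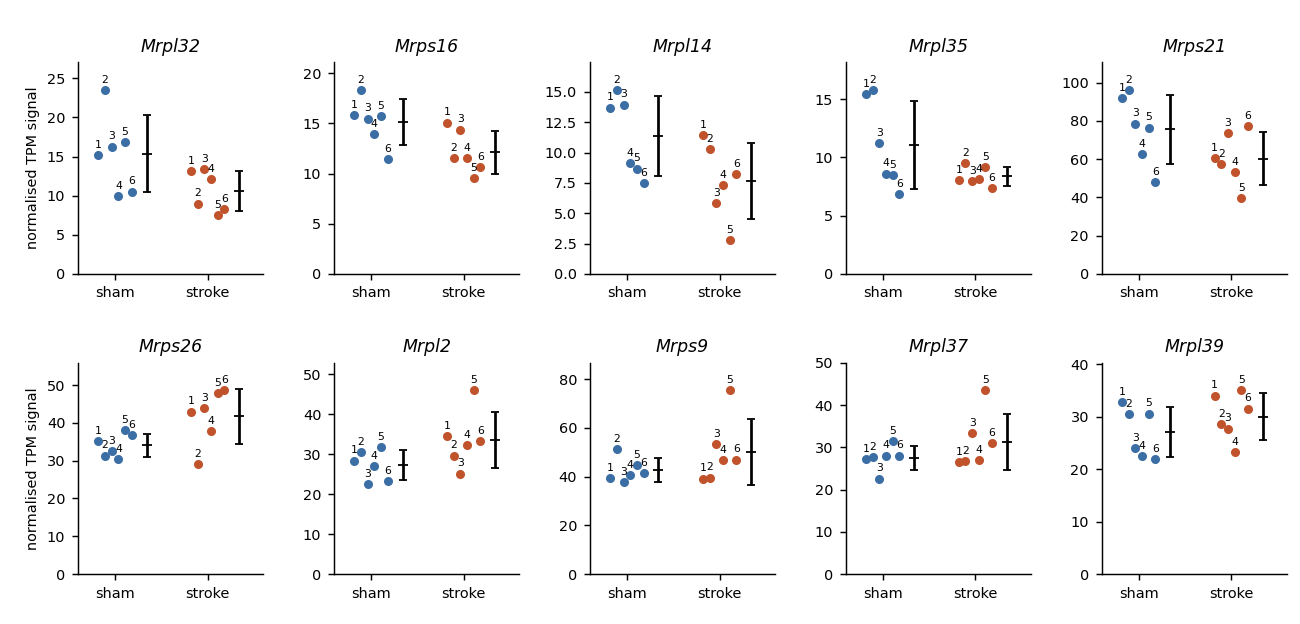
Normalised TPM signal by mouse for the 5 members with the smallest p in each direction, those lower in stroke mice in the upper row and those higher in the lower row. Points carry the mouse number, and the bars give the mean and SD of 6 mice; in every panel the groups overlap.

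Genes named for a particular role, other than Mrpl32 above, gave estimates whose 95% interval held 0. Mrpl12, the stalk protein to which translation factors dock, had means of 39.3 ± 14.2 and 34 ± 6.69 in sham controls and stroke mice (SD, n = 6 per group), a log2 fold change of −0.13 with a 95% interval of −0.72 to 0.47. Mrpl44, related to RNase III, had −0.16 (−0.78 to 0.47), with the lowest value of 3.46 in sham control 6, and the estimate was −0.42 without that mouse and −0.02 without sham control 1. Mrpl45, near the exit of the peptide tunnel, had 0.14 (−0.17 to 0.45), and single mice moved it to 0.055 (without sham control 6) and 0.21 (without sham control 2). Mrpl58, a peptidyl-tRNA hydrolase built into the large subunit, had −0.18 (−0.71 to 0.35), and single mice moved it to 0.02 (without stroke mouse 5) and −0.29 (without sham control 3). Mrps12, at the decoding centre, had 0.01 (−0.47 to 0.48), and Mrps27, a pentatricopeptide repeat protein, −0.16 (−0.52 to 0.21).

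The values by mouse show how these genes differ. Mrpl12 had 54.6, 50.9, 35.9, 37.6, 42.5 and 14.5 in the sham controls and 40.3, 34.3, 40.3, 33.7, 22.0 and 33.3 in the stroke mice, with sham control 6 and stroke mouse 5 far below their groups, and its estimate was −0.39 without sham control 6, −0.007 without stroke mouse 5 and −0.01 without sham control 1. Mrps27 had 15.4, 14.0, 14.0, 14.0, 15.5 and 7.29 and then 11.9, 12.7, 12.4, 11.6, 9.44 and 11.9, so every stroke mouse lay below the sham controls other than number 6. Its estimate was −0.31 without that mouse, −0.099 without stroke mouse 5 and −0.07 without sham controls 1 and 2, at a limma adjusted p no smaller than 0.254 in any fit that left out 1 mouse. Mrpl24 went against this order, with 42.8, 58.2, 50.01, 53.4, 58.7 and 65.2 in the sham controls, of which number 6 was the highest, and 61.3, 57.1, 55.1, 61.0, 32.6 and 62.3 in the stroke mice.

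Mrps18a, Mrps18b and Mrps18c are paralogues that descend from 1 bacterial protein and occupy different places in the ribosome. Their means over 12 mice were 51.6, 36.5 and 35.4, and their log2 fold changes were 0.08 (95% interval −0.24 to 0.40), 0.01 (−0.24 to 0.25) and −0.17 (−0.51 to 0.17). Mrps30, a large-subunit protein by place, had −0.05 (−0.47 to 0.38), and Mrps36 −0.17 (−0.61 to 0.27). Single mice moved the estimate of Mrps18c to −0.07 (without sham control 2) and −0.25 (without sham control 3), and that of Mrps36 to −0.05 (without sham control 1) and −0.32 (without sham control 6). Mrps18b was the steadiest of the 3 paralogues, with 28.9 to 42.3 in sham controls and 32.5 to 39.8 in stroke mice. The most abundant member, Mrpl52, had 189, 200.3, 126, 139, 120 and 95 in the sham controls and 188, 139, 178, 114, 91.9 and 154 in the stroke mice, with means of 145 ± 41.4 and 144 ± 36.9 (SD, n = 6 per group). Its mice spread about as widely within each group, and the 95% interval of its log2 fold change ran from −0.47 to 0.47.

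The members varied together over mice more than they varied between the groups. The mean log2 level of the large subunit relative to all genes tested was 0.40, 0.60, 0.32, 0.24, 0.41 and −0.01 in the sham controls by number, while the stroke mice had 0.35, 0.18, 0.45, 0.22, 0.10 and 0.12. The group means were 0.33 ± 0.20 and 0.24 ± 0.14 (SD, n = 6 per group), a difference of −0.09 that is smaller than either SD with all mice included. The small subunit gave 0.35, 0.48, 0.28, 0.24, 0.31 and 0.01 in sham controls and 0.24, 0.15, 0.39, 0.15, 0.13 and 0.13 in stroke mice. Its means were 0.28 ± 0.15 and 0.20 ± 0.10, a difference of −0.08. Without sham control 6 the differences were −0.16 for the large and −0.13 for the small subunit, larger than the SD of either group (0.13 and 0.14 for the large subunit, 0.09 and 0.10 for the small), and without sham control 2 both were −0.04. The difference between subunits within a mouse was 0.05 ± 0.05 in sham controls and 0.03 ± 0.05 in stroke mice, so the balance of large to small subunit transcripts differed between the groups by less than its spread. Without sham controls 1 and 2, the relative differences were −0.01 for both subunits.

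**Figure D4:**
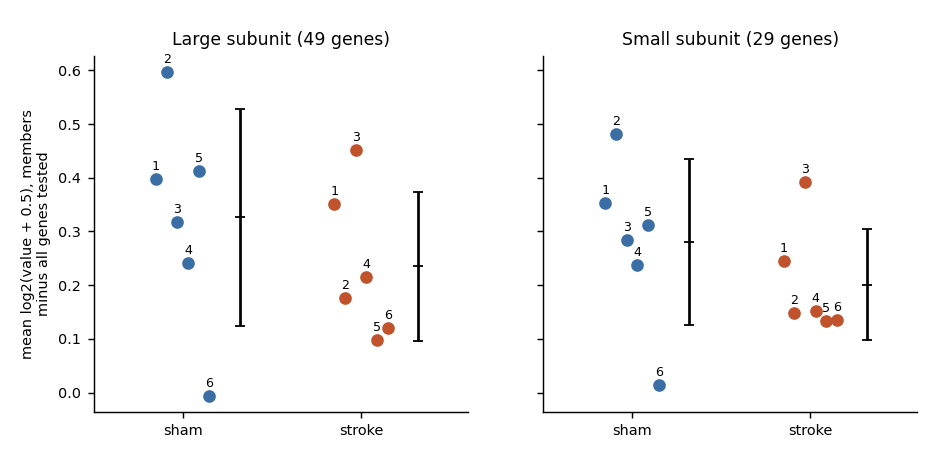
Mean log2(value + 0.5) of the members minus that of all genes tested, for the large (left) and small subunit (right). Points are mice with their number, and the bars give mean and SD of 6 mice; sham control 2 is highest and sham control 6 lowest in both panels.

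Sham control 2 held the highest value of the 12 mice for 41 of 78 members, and sham control 6 the lowest for 41. Stroke mouse 5 was lowest for 20 members and highest for 6, and stroke mouse 3 was highest for 11. In a principal component analysis of the members, PC1 took 49% of the variance, compared with 43.4% for PC1 of all genes tested. A shared axis of this size was therefore not particular to the members. Their PC1 ran from 3.21 in sham control 2 to −3.19 in sham control 6. PC2 took 16.2% and set stroke mouse 5 apart at −2.85, with all other mice between −0.71 and 1.18. The mouse highest for most members had the second highest epithelial and plasma cell sums, and the mouse lowest for most members had the lowest of both. The same mice had the second highest and the lowest total signal, at 1386994 and 559570. As a share of the total the order turned, with 0.204% in sham control 2, the second lowest share, and the highest share in sham control 6. The germinal centre markers summed to 326 in sham control 2 and 323 in sham control 6. Their sum was highest in sham control 5, at 528, and in stroke mouse 3, at 523. The part of these cells and of the total in the members' levels was not tested.

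**Figure D5:**
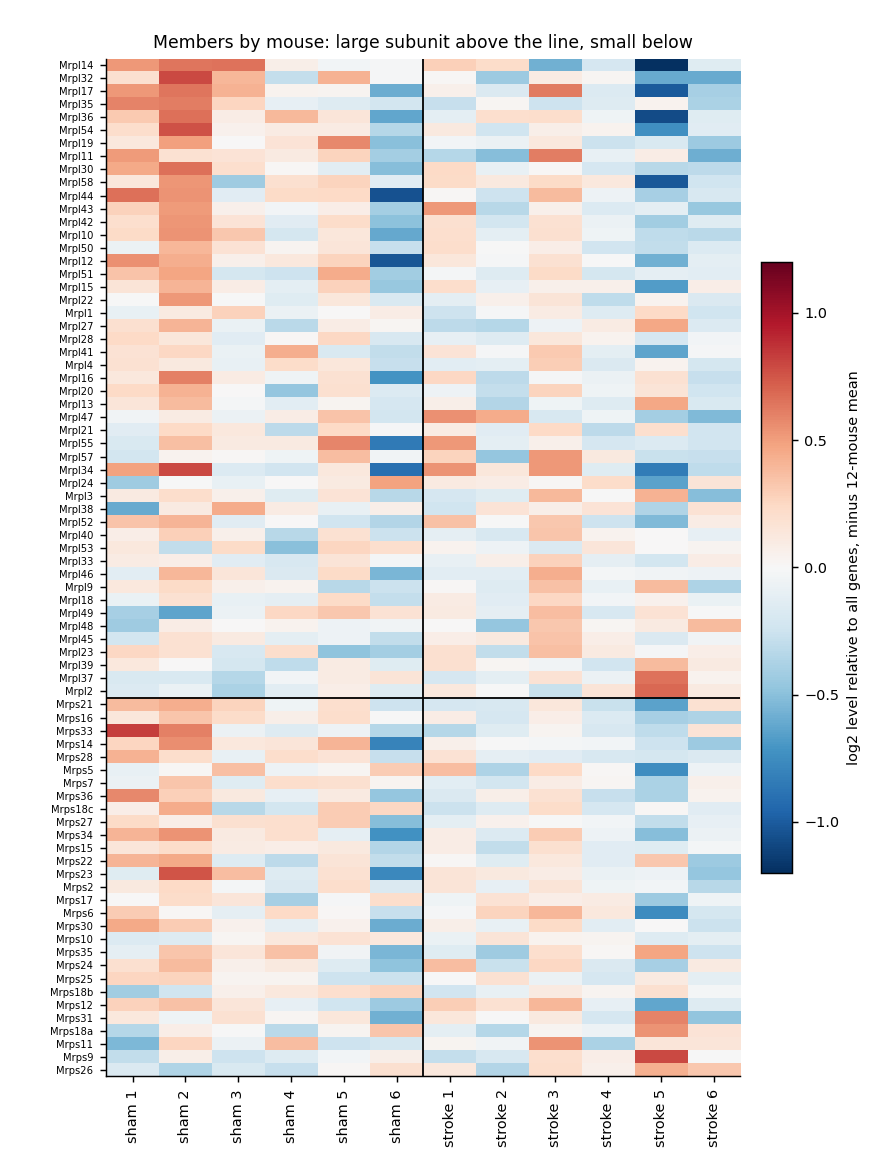
Deviation of each member's log2 level, relative to all genes tested in the same mouse, from its mean over 12 mice (colour, log2 units), with mice in columns and members in rows ordered by log2 fold change within each subunit. Sham control 2 is mainly red and sham control 6 mainly blue, and stroke mouse 5 is blue for some members and red for others.

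Leaving out sham control 6, the low sham library, raised the number of members lower at an unadjusted limma p under 0.05 to 12, when 9.18% of all genes were lower. These were Mrpl12, Mrpl14, Mrpl19, Mrpl32, Mrpl35, Mrpl36, Mrpl44, Mrps14, Mrps16, Mrps21, Mrps27 and Mrps28, and the smallest adjusted p among members was 0.247. Leaving out sham control 1, 2, 3 or 5, or stroke mouse 5 or 6, gave 0 such members, and leaving out sham control 4 or stroke mouse 2 or 4 gave 1. The count therefore turned on single libraries in both directions.

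Genes that act with the mitochondrial ribosome were read from fixed lists in the same fit, and 0 genes of any list passed the adjusted threshold. The 5 subunits with other names had 4 negative estimates and a median of −0.09, but 2 of 5 were negative when rescaled to the same total and also without sham controls 1 and 2. Among them were Dap3, a GTP-binding small-subunit protein, at 0.03, and Chchd1 at −0.29. Of 26 assembly factors, 15 were negative with a median of −0.05, compared with 8 when rescaled to the same total and 12 without sham controls 1 and 2, with medians of 0.07 and 0.03. Below the rescaled median of all genes, which was 0.12, lay 4 of these 5 subunits and 15 of 26 assembly factors, as on the values as deposited. At an unadjusted limma p under 0.05, Fastkd2, which binds the large-subunit rRNA, was lower, with a log2 fold change of −0.37 and an adjusted p of 0.748. Mettl17 (0.43, limma adjusted p = 0.791) and Rbfa (0.30, limma adjusted p = 0.748), both factors of small-subunit maturation, were higher at the unadjusted threshold. Of all genes tested, 1.69% were lower and 4.42% higher there. Rbfa had 28.0, 32.8, 25.7, 28.4, 23.8 and 27.9 in sham controls and 37.6, 28.9, 34.1, 33.3, 37.6 and 34.3 in stroke mice, and only sham control 2 and stroke mouse 2 made the groups overlap.

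Of 15 translation factors, 11 were negative with a median of −0.13, compared with 8 and −0.007 when rescaled to the same total, and 0 passed the unadjusted threshold. Of the 20 mitochondrial tRNA synthetase genes and subunits of the glutamyl-tRNA amidotransferase, 14 were negative with a median of −0.07, but 8 with a median of 0.05 when rescaled. Below the rescaled median of all genes lay 11 of 15 translation factors and 14 of 20 genes of the tRNA synthetase list, as on the values as deposited. Fars2, which charges the mitochondrial tRNA for phenylalanine, was the 1 gene of these lists whose groups did not overlap, as was the case for 0.437% of all genes tested, and was lower at the unadjusted threshold (1.69% of all genes). It had 32, 32.9, 29.2, 31.1, 30.2 and 30.5 in the sham controls and 18.9, 24.1, 26.5, 28.1, 20.0 and 26.6 in the stroke mice. The estimate was −0.38 on the log2 scale with a standard error of 0.118 and a limma adjusted p of 0.716. Hars2, the histidine enzyme, was higher at the unadjusted threshold (4.42% of all genes), with a log2 fold change of 0.43 and a limma adjusted p of 0.753.

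Transcripts on either side of the mitochondrial ribosome are given for comparison. Cytosolic ribosomal proteins had 75 of 80 negative estimates and a median of −0.19, and nuclear complex I subunits 31 of 36 and −0.13, so negative medians were not confined to the mitochondrial ribosome. Without sham controls 1 and 2, these counts turned to 3 of 80 with a median of 0.17 and 6 of 36 with a median of 0.12. Rescaled to the same total, complex I subunits were evenly split at 18 of 36, and cytosolic ribosomal proteins had 56 of 80 negative with a median of −0.07. Below the rescaled median of all genes, which was 0.12, lay 31 of 36 and 74 of 80, compared with 31 and 75 on the values as deposited. Quantile normalization left 49 of 80 cytosolic ribosomal proteins negative, with a median of −0.05. Without sham controls 1 and 2, 8 of 15 translation factors and 12 of 20 genes of the tRNA synthetase list were negative. The mitochondrial genes whose mRNAs this ribosome translates had 2 of 13 negative estimates and a median of 0.55, which was 0.33 without sham controls 1 and 2 and above 0.5 under every scaling tried. At an unadjusted limma p under 0.05, 5 of them were higher, compared with 4.42% of all genes tested (mt-Co1, mt-Co2 and the complex I subunits mt-Nd1, mt-Nd5 and mt-Nd6), and 0 passed the adjusted threshold.

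The members are spread over 17 chromosomes, with 11 genes on chromosome 11, the most of any. Promoter letters are given as a description, and their part in the members' levels was not tested. RefSeq windows of 250 bases before to 50 bases after a start (GRCm38.p6) were found for 69 members, 75 windows in all. On either strand, the letters CCGGAAG, the core bound by ETS factors such as GABP, were in 34.7% of member windows, compared with 8.86% of all windows and 18.3% of the windows of genes tested. GCGCATGCG, bound by NRF1, a regulator of nuclear genes for mitochondria, was in 9.33% compared with 1.75% and 3.74%. AAGATGGC, bound by YY1, was in 16% compared with 2.75% and 4.64%, and 8 of its 12 matches lay after the start. TATAAA was in 6.67% compared with 13.6% and 7.95%. In all, 50.7% of member windows held at least 1 of the ETS, NRF1 and YY1 motifs, compared with 24.6% for genes tested. A match is a description of letters and not a measured binding site.

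The NRF1 matches of members are shown with their flanks, 29 bases each, 5′ to 3′ on the strand of the gene, with the match or overlapping matches in capitals. Mrpl32, the member with the smallest p, was the 1 gene with 2 separate places.
Mrpl32 (chr13:14613105-14613133): ttgacccttGCGCATGCGCaagaggggcc
Mrpl32 (chr13:14613042-14613070): gcggacttaaCGCATGCGCtcagcccgcg
Mrpl9 (chr3:94443299-94443327): ggcgcagctGCGCATGCGCggggtccttc
Mrpl10 (chr11:97041437-97041465): cccagctccaCGCATGCGCatagcggccc
Mrpl17 (chr7:105811080-105811108): ccgagttactGCGCATGCGtcctctgaga
Mrpl22 (chr11:58171621-58171649): gcctcggactGCGCATGCGtatagtcagc
Mrpl39 (chr16:84735350-84735378): aggagaggcGCGCATGCGCccccgcgtgg
Mrps18b (chr17:35916646-35916674): aacggcccgaCGCATGCGCactgggagca

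Genes with these letters did not share a direction: Mrpl32 had a log2 fold change of −0.50, Mrpl39 of 0.15 and Mrps18b of 0.01. ETS matches lay among others at Mrps26, the small-subunit member with the smallest p among positive estimates, and at Mrpl52, the most abundant member, which has 2 of them. Of the named members, Mrpl58, Mrps12, Mrps16, Mrps18a, Mrps18b, Mrps18c, Mrps21 and Mrps27 also held ETS letters, with estimates of either sign. Mrpl58 and Mrps16 had 2 matches each. Those of Mrps26 and Mrpl52 are shown in the same way.
Mrps26 (chr2:130563732-130563760): ctccgcggccaCTTCCGGgccgggcgcag
Mrpl52 (chr14:54426851-54426879): caagatgtcggCTTCCGGttttcccggca
Mrpl52 (chr14:54426900-54426928): ggccacgcccaCTTCCGGttcccttgctc

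Longer stretches of 120 bases just before the start, outside any annotated exon, are shown for Mrps16 and Mrpl22. That of Mrps16, at its start farthest upstream, held none of the motifs, although the window of its other start held 2 ETS matches. That of Mrpl22 held an ETS and an NRF1 match, a combination found in 3 member windows.
Mrps16 (chr14:20393635-20393754, minus strand): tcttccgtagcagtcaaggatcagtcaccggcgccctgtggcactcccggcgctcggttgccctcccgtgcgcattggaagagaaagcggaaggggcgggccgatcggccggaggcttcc
Mrpl22 (chr11:58171541-58171660, plus strand): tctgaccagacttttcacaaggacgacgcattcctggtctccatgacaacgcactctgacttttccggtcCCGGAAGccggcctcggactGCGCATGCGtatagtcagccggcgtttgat

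Mrpl46, of the large subunit, and Mrps11, of the small subunit, are read in opposite directions, from RefSeq starts with 41 bases between them (chr7:78783090-78783130). In GENCODE M21 the genes overlap, and their outermost starts lie 412 bases apart. Mrpl46 had 19.1, 27.9, 21.4, 17.1, 23.3 and 11.4 in sham controls, and Mrps11 had 9.32, 16.8, 12.1, 16.6, 10.9 and 9.52. In stroke mice Mrpl46 had 18.8, 17.8, 26.9, 18.6, 18 and 19.3, and Mrps11 13.9, 12.5, 19.2, 9.45, 13.6 and 14.8. Sham control 2 was the highest sham control and stroke mouse 3 the highest stroke mouse for both genes. This was not particular to the pair. Sham control 2 was the highest mouse for 41 of 78 members, and stroke mouse 3 had the highest relative mean over members of the stroke mice, at 0.43.

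Some members share transcript sequence with another gene, so their values depend on how reads were divided. A transcript of Mrpl23 matches the annotated pseudogene Mrpl23-ps1 over 540 bases at 100% identity, and both were listed at similar levels, with means over 12 mice of 19.8 and 23.5. The log2 differences between stroke mice and sham controls were 0.15 for Mrpl23, −0.35 for Mrpl23-ps1 and −0.12 for their sum, so the direction for Mrpl23 is uncertain. Mrps34 shares 642 bases with Nme3, and Mrpl53 695 bases with Gm42688. Exons of 33 members overlap an exon of another gene.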

How the data were processed

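Total RNA of purified PP B cells from 12 mice was sequenced. According to the methods and the submitters' processing notes, the authors used FastQC and Trimmomatic 0.39 on the reads, kallisto 0.48.0 (GRCm38) for transcript abundances and sleuth 0.30.0 in R 4.1.2. What they deposited is 1 expression signal for each gene and mouse, named normalised TPM. Column sums ran from 559570 to 1404340, so the values were treated as a signal rather than TPM. They are not counts, and the depth is unknown.

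With limma 3.58.1 (R 4.3.3), log2(value + 0.5) was compared without covariates for genes that reached 1 in all mice. Fold changes on this scale understate those of low genes. The test was first tested on simulated data. Single members were also compared by exact permutation over all 924 assignments. Groups came from the sample labels, and the reported values use all 12 mice. The study combined mice from several experiments; which mouse came from which is not given in the sources used here, so the fit has no term for it and the experiment's part was not tested.

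The members and gene lists were chosen with earlier results of these data known. Members named are those with unadjusted p under 0.05, the 5 with the smallest p in each direction, the 3 highest and 3 lowest in each subunit, and 12 chosen for their roles. Members named for their spread, promoter letters, neighbours, shared sequence or the fit without sham control 6 fall outside this rule and were chosen after their values were seen. 1 gene of the marker lists is not reported here. Coordinates come from GENCODE M21 (GRCm38), which held all 78 members, and promoter windows from RefSeq (GRCm38.p6). Similar transcripts were sought with BLAST 2.17.0+ at 98% identity or more. Alternatives were other pseudocounts, filters, scalings, weights, a replicate block and leaving out each mouse; fits without sham controls 1 and 2, or without trends in transcript length and GC content, were added after seeing the data.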

Additional observations from a re-analysis of the deposited data

Results flagged for a closer look

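Each of 62 groups of 6 mice for the named members and subunit means was examined for a mouse far from the rest, and chance marks about 1 group in 20. All 7 marks fell on the lowest mouse, which was sham control 6 or stroke mouse 5.

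Mrpl24 was 32.6 in stroke mouse 5 and 55.1 to 62.3 in the other stroke mice. Mrpl58 was 10.5 in the same mouse and 20.1 to 28.5 in the others. Mrps31 was 5.57 in sham control 6 and 9.99 to 11.6 in the other sham controls.

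Both low mice stood apart for 2 genes. Mrpl12 was 14.5 in sham control 6, with 35.9 to 54.6 in the other sham controls, and 22.0 in stroke mouse 5, with 33.3 to 40.3 in the other stroke mice. Mrps27 was 7.29 in sham control 6, with 14.0 to 15.5 in the others, and 9.44 in stroke mouse 5, with 11.6 to 12.7 in the others. Sham control 6 had the lowest epithelial and plasma cell sums, and stroke mouse 5 the lowest B cell sum; their part in these values was not tested.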

How the results depend on the processing

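No member passed the adjusted threshold in any of the 23 refits. Rescaling to the same total moved the median of all genes to 0.12 and gave 15 large and 11 small-subunit members negative and 0 lower at an unadjusted p under 0.05 (341 genes higher, 72 lower); Mrpl52 became 0.13, Mrpl24 0.11, Mrps2 0.064, Mrps6 0.067, Mrpl12 0.0014 and Mrps30 0.077. Without sham controls 1 and 2, 16 and 10 members were negative and 0 lower (141 genes lower); Mrpl52 became 0.24, Mrpl44 0.15, Mrps2 0.070, Mrps6 0.065, Mrpl12 0.14, Mrps18b −0.11, Mrps30 0.18 and Mrps36 0.054. Median-of-ratios scaling gave Mrps12 −0.016 and Mrps18b −0.018, and quantile normalization Mrpl52 0.0084 and 327 genes lower. Removing length and GC trends gave 4 members lower, 350 genes lower, Mrpl52 0.020 and Mrpl24 0.015. Sample weights gave 4 members lower, 866 genes higher and 703 lower, Mrpl24 0.13, Mrps31 −0.15, Mrps6 0.039, Mrpl58 0.014 and Mrps18b −0.055. No filter gave 1 member higher (1418 genes higher, 350 lower), and a filter on the mean called 1 gene of the table at an adjusted p under 0.05. The causes were not tested.

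Leaving out each mouse gave 0 to 12 members lower and 0 to 1 higher, 26 to 40 large and 15 to 24 small-subunit members negative, 395 to 936 genes higher, 146 to 1162 lower and 0 to 1 called. Lowest and highest values were −0.11 and 0.12 for Mrpl52, −0.082 and 0.13 for Mrpl24, −0.14 and 0.0081 for Mrps2, −0.15 and 0.11 for Mrps6, −0.12 and 0.15 for Mrps12, −0.0034 and 0.16 for Mrps18a, −0.059 and 0.050 for Mrps18b, −0.21 and 0.058 for Mrps30, −0.086 and 0.16 for Mrps31 and −0.29 and 0.020 for Mrpl58.

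Same-numbered mice of the groups deviated together with correlations of 0.01 to 0.49, not all above 0.1, and not every sham control correlated best with its own number, so the numbers were not taken to pair the mice. With the replicate block, 3 members were lower and 2 higher at an unadjusted p under 0.05, compared with 404 genes lower (3.21%) and 770 higher (6.12%) of all tested.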
